A study of Arabidopsis thaliana with 60 samples.

Results

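TIR1 and its 5 relatives AFB1 to AFB5 are auxin receptors of Arabidopsis thaliana. Their mRNA was measured in roots given auxin, with or without activation of a stabilised repressor of the auxin response. The members are the 6 loci TIR1 (AT3G62980), AFB1 (AT4G03190), AFB2 (AT3G26810), AFB3 (AT1G12820), AFB4 (AT4G24390) and AFB5 (AT5G49980), taken by locus from the 32833 genes of the count tables. Each of the 6 was counted in all 60 libraries, with 330 to 10655 reads per gene and library, and all 6 passed the filter on low counts.

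As background, these receptors are F-box proteins, and TIR1 joins ASK1, CUL1 and RBX1 in an SCF ubiquitin ligase. Auxin binds between the receptor and an Aux/IAA repressor, the repressor is then ubiquitinated and degraded, and the ARF transcription factors it held are freed. TIR1 and AFB2 are known for auxin control of root growth, AFB1 for the rapid inhibition of root growth, and AFB4 and AFB5 for binding the synthetic auxin picloram. The microRNA miR393 is known to cut the mRNAs of TIR1, AFB1, AFB2 and AFB3, and AFB4 and AFB5 are not among its known targets.

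The miR393 sites are shown because they divide the 6 members into those with a site and those without. Positions are on RefSeq TAIR10.1 and every sequence runs 5′ to 3′ on the strand of the RNA. In the miRNA, capitals mark the seed (bases 2 to 8). In the target windows, capitals mark bases that do not form a Watson-Crick pair with miR393, G:U pairs included. The first 2 lines are the mature miRNAs from the loci MIR393A, chr2:16652111-16652132 (+), and MIR393B, chr3:20691657-20691678 (+). The next 4 are the windows of TIR1, chr3:23273727-23273748 (-), AFB1, chr4:1405341-1405362 (-), AFB2, chr3:9870237-9870258 (+), and AFB3, chr1:4369085-4369106 (-). The last pair holds the best-pairing windows of AFB4, chr4:12615419-12615440 (-), and AFB5, chr5:20335762-20335783 (-).
miR393a: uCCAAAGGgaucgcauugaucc
miR393b: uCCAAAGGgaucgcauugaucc
TIR1: gAGAcaatgcgatccctttgga
AFB1: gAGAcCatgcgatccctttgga
AFB2: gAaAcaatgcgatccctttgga
AFB3: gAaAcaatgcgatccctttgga
AFB4: ggTtcaaAgAgCtTActttggT
AFB5: ggatcTCtTGTTtccctGAgga
Both loci give the same mature sequence. All 6 windows lie in coding sequence, and in TIR1, AFB1, AFB2 and AFB3 the bases opposite the seed all pair. The windows of AFB2 and AFB3 are identical and have 2 mismatches. That of TIR1 has 2 mismatches and 1 G:U pair, and that of AFB1 has 3 mismatches and 1 G:U pair. The best window of AFB4 has 6 mismatches and 1 G:U pair and that of AFB5 has 8 mismatches. Windows with at most 4 such bases occurred in 6 of 27438 coding genes searched, 4 of them these receptors. Windows with at most 7 occurred in 1232 genes.

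The 60 libraries come from a pair of lines. In pGATA23::shy2-2:GR the seedlings carry a degradation-resistant IAA3/SHY2, and in pGATA23::slr-1:GR a degradation-resistant IAA14/SLR. Each repressor is fused to the glucocorticoid receptor, so that dexamethasone (DEX) lets it enter the nucleus, and each is driven by the promoter of GATA23, a gene of the cells that found lateral roots. Seedlings aged 4 days spent 22 h on 10 µM NPA, an inhibitor of auxin transport, then 2 h on NPA with 10 µM DEX or the solvent DMSO, then moved to 10 µM IAA, the natural auxin, with DEX or DMSO. Roots were taken at 0, 1, 2, 4 and 6 h on IAA, giving 20 groups of 3 libraries (the sample names and characteristics give the 1 h groups, while the harvest protocol lists the other 4 times alone), each library from about 200 pooled pieces of lower root. All groups carry a fusion and had NPA. No group without a fusion received DEX and no time course without IAA is among the libraries, so time since transfer and auxin cannot be told apart. The labels do not say whether the 3 libraries of a group came from separate cultures, so p-values measure the spread between these libraries. RNA was from whole root pieces, in which fewer cells of a type and less RNA per cell cannot be told apart.

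Reads assigned to genes ranged from 12146529 to 94077078 per library, with a median of 40286724. The root markers SCR, SHR, CASP1, PYK10, COBL9 and PHO1 were above 0 in every library, and several of them changed with time and with DEX, as given beside the receptors. CPM here is the count scaled to library size. The leaf-polarity genes YAB3 and AFO had a median of 0 CPM. Of 60 libraries, 7 stood apart with a mean log2(CPM + 1) over 9 photosynthesis genes of 6.72 to 8.26, against 2.58 to 5.86 in the other 53: shy2-2 DEX 0 h replicate 2 and 4 h replicate 3, shy2-2 DMSO 2 h replicate 2, slr-1 DEX 0 h replicates 1 and 2, and slr-1 DMSO 2 h replicates 1 and 3. The deposited names carry 5 codes, called flow cells here for short. The labels name no batch and do not say what the codes stand for, so flow cell here means a shared code only. In shy2-2 the 0, 2, 4 and 6 h groups of an arm share a flow cell, but DEX and DMSO do not, except at 1 h. In slr-1, 1 h and 0 h of DEX share a flow cell, as do 2, 4 and 6 h within each arm. Differences between flow cells and between groups on them cannot be told apart elsewhere. The auxin treatment was visible in IAA19, an auxin-induced repressor gene, at 8.02 ± 2.86 CPM (SD, n = 3) at 0 h and 498.5 ± 48.5 CPM at 6 h in shy2-2 DMSO. GATA23, whose promoter drives the fusions, went from 0.379 ± 0.105 to 16.98 ± 3.01 CPM in the same groups. With DEX both genes were still higher than at 0 h at every time in both lines, by log2 2.62 to 5.50. At 6 h both were lower in DEX than in DMSO (edgeR adjusted p under 0.05), by -1.22 and -5.96 in shy2-2 and -1.27 and -5.67 in slr-1. In slr-1 1 of the 2 was already lower in DEX at 0 h (log2 -5.15).

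Per kilobase of exon, TIR1 mRNA was the most abundant of the 6 on average and AFB4 mRNA the least. Mean levels over the 20 groups were 58.4 CPM per kb for TIR1, 44.42 for AFB1, 33.55 for AFB2, 32.17 for AFB5, 26.77 for AFB3 and 7.34 for AFB4. At 0 h TIR1 and AFB1 overlapped in all 4 arms: in shy2-2 DMSO they stood at 70.17 and 61.4 CPM per kb, and in slr-1 DMSO AFB1 was at 68.53 and TIR1 at 63.96. From 2 h on, TIR1 libraries lay above those of every other member in all 4 arms. AFB1 was by then closer to AFB2 and AFB5 and overlapped the next member in shy2-2 DMSO at 2, 4 and 6 h and in the other 3 arms at 4 h. At 4 h in shy2-2 DMSO the means were 32.27 for AFB5, 31.94 for AFB1 and 30.55 for AFB2. At 2 and 6 h in those 3 arms AFB1 stayed above the next member without overlap, as in shy2-2 DEX at 6 h, with AFB1 at 49.56 and AFB2 at 36.62 CPM per kb. AFB2 and AFB5 libraries overlapped in most groups. AFB3 came next, and AFB4, at 5.74 to 8.42 CPM per kb, was below AFB3 without overlap in all 20 groups.

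**Figure D1:**
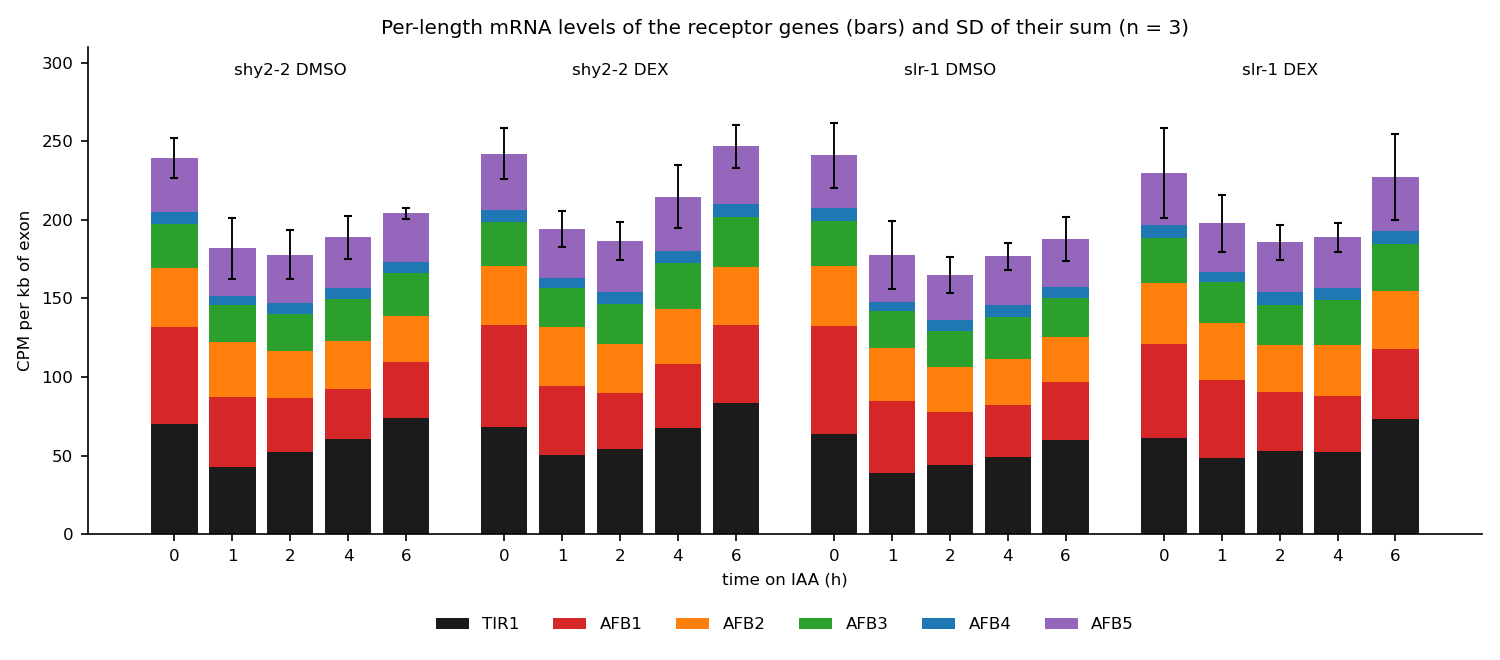
Mean mRNA level of each receptor gene (CPM per kb of exon, stacked bars) by line, treatment and hours on IAA, with the SD of the sum over 3 libraries as the error bar. The red AFB1 segment is taller at 0 h than at any later time in every arm, the dark TIR1 segment is the tallest of the 6 from 2 h on, and the AFB4 segment is the thinnest throughout.

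Added up per length, receptor mRNA was 239.3 ± 12.97 CPM per kb (SD, n = 3) at 0 h in shy2-2 DMSO, 177.8 ± 15.7 at 2 h and 204.2 ± 3.46 at 6 h. In slr-1 DMSO the sum was 241.0 ± 20.8, then 164.9 ± 11.7 and 187.7 ± 13.8. With DEX it stood at 246.8 ± 13.7 in shy2-2 and 227.2 ± 27.2 in slr-1 at 6 h, beside 242.0 ± 16.2 and 229.7 ± 28.6 at 0 h. The share of AFB1 in the sum was 25.7% to 28.4% at 0 h over the 4 arms and 16.9% to 18.9% at 4 h. That of TIR1 was 26.4% to 29.2% at 0 h and 31.7% to 36.3% at 6 h. These sums and shares are descriptions with no test.

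The members differed in how far replicates spread. TIR1 varied most, with a median coefficient of variation within groups of 16.1%, against 6.4% for AFB1 and 4.2% to 4.9% for the other 4. Group means of TIR1 and of AFB1 each spanned 2.15-fold from lowest to highest, those of AFB2, AFB3 and AFB4 1.37-fold, 1.4-fold and 1.47-fold, and those of AFB5 1.28-fold. A TIR1 change of a given size therefore had a wider confidence interval than one of any other member.

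**Figure D2:**
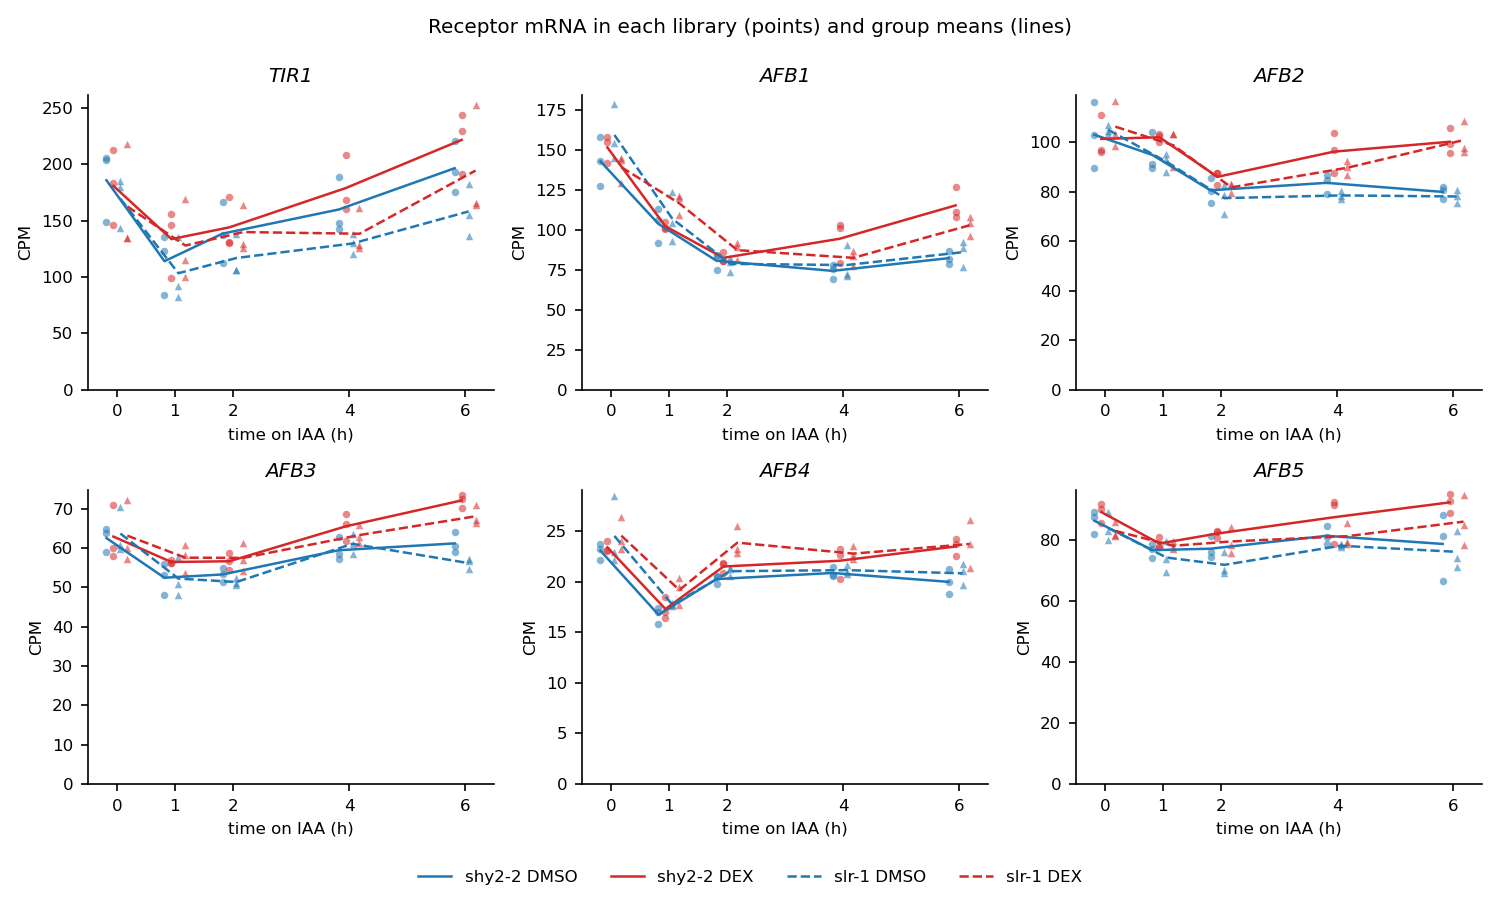
Level of each receptor gene (CPM, from 0) in every library against hours on IAA; points are libraries, lines join group means, blue is DMSO, red is DEX, solid lines and circles are shy2-2, dashed lines and triangles slr-1. AFB1 drops from between 127.4 and 178.7 CPM at 0 h to between 68.94 and 102.8 CPM at 4 h, the group means of TIR1 and AFB4 are lowest at 1 h in all arms, and the red points of AFB2 lie above the blue ones at 6 h.

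The first question is how each receptor's mRNA moved on IAA without DEX. Of the 24 values in shy2-2 DMSO (6 members at 4 times), 13 were lower than at 0 h by edgeR's quasi-likelihood test at an adjusted p under 0.05 and none was higher, and 14 were lower and none higher in slr-1 DMSO. By time, 4, 4, 2 and 3 of the 6 members fell at 1, 2, 4 and 6 h in shy2-2, where 13.2, 11.6, 17.4 and 20% of all genes tested fell. In slr-1 4, 4, 3 and 3 fell, where 11.4, 13.9, 24.2 and 25.3% of all genes fell. At 1 and 2 h the members' counts were larger than those shares, and by 4 and 6 h, with 2 or 3 of 6, nearer to them. The median log2 change of the 6 members was -0.36, -0.28, -0.15 and -0.13 in shy2-2 and -0.36, -0.36, -0.32 and -0.21 in slr-1, while the median over all genes stayed between -0.03 and 0.06. In slr-1 DMSO the 0 h group is on another flow cell than the later groups, and in shy2-2 DMSO the 1 h group is on another flow cell than the rest. Replicate 1 of slr-1 DMSO 0 h had the fewest reads of all libraries, 12146529, and was the highest of its group for all 6 members. Without it the slr-1 DMSO calls of TIR1 and AFB3 at 1 h, AFB5 at 2 h and AFB4 at 4 and 6 h were lost.

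Markers of root cell types moved over the same hours. Of the 6 root markers 1, 1, 3 and 3 fell at 1, 2, 4 and 6 h in shy2-2 DMSO and 1, 2, 4 and 5 in slr-1 DMSO (edgeR adjusted p under 0.05), and SCR, a gene of the endodermis, rose at 1 and 2 h in shy2-2 DMSO. PHO1, a phosphate exporter of the vascular cylinder, stood at 241.2 to 398.6 CPM at 0 h and 45.08 to 64.02 at 6 h in shy2-2 DMSO, and at 302.8 to 406.8 and 24.16 to 31.72 CPM in slr-1 DMSO. COBL9, a root hair gene, had log2 changes of -2.29 and -2.78 at 6 h in shy2-2 DMSO and slr-1 DMSO. The summed level of the 6 markers was 2755 to 5573 CPM at 0 h and 6250 to 6878 at 6 h in shy2-2 DMSO, and 3515 to 6094 and 4225 to 6491 CPM in slr-1 DMSO. That sum is mostly PYK10, with a median over all libraries of 5363 CPM against 19.01 to 256.9 for the other markers. With DEX 1 of 24 root marker values rose and 5 fell in shy2-2, and none rose and 6 fell in slr-1. The part of these markers in the receptor changes was not tested.

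AFB1 mRNA was lower at all 4 times and from 2 h on had the largest falls of the 6 by estimate in both DMSO arms, while at 1 h TIR1 had the largest. In shy2-2 DMSO its libraries stood at 157.9, 142.8 and 127.4 CPM at 0 h, at 91.55, 113.2 and 106 at 1 h, and at 82.9, 84.01 and 74.78 at 2 h. They then stood at 68.94, 75.56 and 78.17 CPM at 4 h and at 81.73, 86.45 and 78.35 at 6 h. Every library on IAA was below every library at 0 h, and the lowest group was 4 h. AFB1 fell by 27.3%, 43.2%, 47% and 41% at 1, 2, 4 and 6 h, with log2 changes of -0.46, -0.81, -0.92 and -0.76 (SE 0.10 each, edgeR adjusted p from 0.001 to 1.3e-07). The 2, 4 and 6 h values come from within 1 flow cell.

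In slr-1 DMSO the AFB1 libraries stood at 178.7, 154.4 and 144.6 CPM at 0 h and 123.4, 104.1 and 92.81 at 1 h. The 2 h libraries were at 82.06, 73.6 and 80.07 CPM, the 4 h libraries at 72.32, 71.17 and 90.15 and the 6 h libraries at 88.75, 76.7 and 92.2 CPM. Again no library on IAA reached the 0 h range. The log2 changes were -0.56, -1.01, -1.05 and -0.90 (SE 0.11, edgeR adjusted p from 0.00026 to 2.2e-08), that is, AFB1 fell by 32.3%, 50.3%, 51.8% and 46.4%.

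AFB2 mRNA was lower from 2 h on. In shy2-2 DMSO its 0 h libraries were at 89.73, 103.1 and 116.2 CPM, those at 2 h at 80.43, 85.72 and 75.51, those at 4 h at 86.92, 79.1 and 84.71 and those at 6 h at 77.06, 80.66 and 82.04. At 1 h they were at 89.53, 91 and 104 CPM, overlapping the 0 h libraries, with the lowest just under their range, and from 2 h on all were below it. AFB2 log2 changes were -0.34, -0.27 and -0.33 at 2, 4 and 6 h (edgeR adjusted p = 0.0033, 0.011 and 0.0025) and -0.12 at 1 h (adjusted p = 0.34). In a fit of only the groups compared, all 3 falls in shy2-2 missed the threshold, at adjusted p of 0.057 to 0.063.

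In slr-1 DMSO AFB2 stood at 106.9, 103.5 and 104.6 CPM at 0 h, 82.64, 78.63 and 70.96 at 2 h, 77.06, 78.12 and 80.31 at 4 h. The 6 h libraries stood at 80.6, 75.39 and 78.21 CPM. No library from 2 h on came near the 0 h range. AFB2 log2 changes were -0.43, -0.44 and -0.44 (edgeR adjusted p = 7.8e-05, 2.8e-05 and 3.1e-05). The 1 h value, -0.18, did not pass with adjusted p = 0.086, although its libraries at 95.18, 88 and 93.14 CPM were all below 0 h. That value passed without replicate 1 at 1 h (adjusted p = 0.041), by DESeq2 (0.028), with unstranded counts (0.032) and without the libraries rich in photosynthetic RNA (0.027).

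TIR1 mRNA fell at 1 h, and by edgeR no later value against 0 h passed. In shy2-2 DMSO TIR1 libraries were at 203.3, 148.6 and 205.4 CPM at 0 h and at 83.87, 122.7 and 135.2 at 1 h. In slr-1 DMSO they were at 184.9, 179.8 and 143.4 CPM at 0 h and at 135.5, 82.38 and 91.9 at 1 h. In both lines the groups did not overlap, although the libraries within each group spread widely.

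The log2 change of TIR1 at 1 h was -0.70 in shy2-2 DMSO (95% interval -1.12 to -0.28, edgeR adjusted p = 0.01) and -0.70 in slr-1 DMSO (-1.17 to -0.23, adjusted p = 0.023), so that TIR1 fell by 38.5% and by 38.4%. At 6 h TIR1 was at 220.7, 175.5 and 193.1 CPM in shy2-2 DMSO and at 155, 136.6 and 182.7 in slr-1 DMSO, overlapping 0 h, with log2 changes of 0.12 and -0.11. The 1 h and 0 h groups are on different flow cells in both of these arms. The shy2-2 fall missed the threshold without replicate 1 at 1 h (log2 -0.54, adjusted p = 0.066), and the slr-1 fall without replicate 1 or 2 at 0 h (0.069, 0.054) or without replicate 2 or 3 at 1 h (0.097, 0.091). At 2 and 4 h in slr-1 DMSO TIR1 was at 138.2, 106.2 and 105.9 and at 120.6, 130.0 and 138.4 CPM, not overlapping 0 h either, with log2 changes of -0.53 and -0.41 (edgeR adjusted p = 0.078 and 0.14). The 2 h value of TIR1 passed by DESeq2 (-0.55, adjusted p = 0.047), in a fit of only the groups compared (0.037) and without replicate 1 at 2 h (0.044), and the 4 h value passed in the fit of only the groups compared (-0.42, 0.025).

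AFB3, the receptor most like AFB2 in coding sequence, fell at 1 and 2 h in both DMSO arms and came back in shy2-2 DMSO. In shy2-2 DMSO it stood at 64.86, 58.89 and 63.75 CPM at 0 h and 48.14, 53.13 and 56.03 at 1 h. The 2 h libraries were at 51.46, 54.95 and 53.37 CPM, the 4 h libraries at 57.07, 58.5 and 62.66 and the 6 h libraries at 64.12, 60.47 and 58.87 CPM. The 1 and 2 h libraries were all below 0 h and the 4 and 6 h libraries overlapped it. AFB3 log2 changes were -0.25 and -0.22 at 1 and 2 h (edgeR adjusted p = 0.0087 and 0.022). The rise from 2 h to 6 h, within 1 flow cell, was 0.22 (adjusted p = 0.023), where 13% of all genes rose.

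In slr-1 DMSO AFB3 fell at 1 h (log2 -0.27, edgeR adjusted p = 0.02) and 2 h (-0.30, 0.0089). AFB3 in slr-1 DMSO was at 70.5, 60.71 and 59.74 CPM at 0 h and 56.61, 54.57 and 57.26 at 6 h, groups that did not overlap, with a log2 change of -0.19 and an adjusted p of 0.066. Several of these AFB3 calls turned on 1 library or on a setting. The shy2-2 DMSO 2 h call was lost without replicate 1 at 0 h (adjusted p = 0.053) or at 2 h (0.08), and the slr-1 DMSO 1 h call without replicate 1 at 0 h (0.097) or replicate 2 or 3 at 1 h (0.056 each). The 2 h to 6 h rise in shy2-2 DMSO was lost without replicate 1, 2 or 3 at 2 h (0.087, 0.055, 0.057) or replicate 1 at 6 h (0.13), and also without the libraries rich in photosynthetic RNA (0.068) and with unstranded counts (0.076). In fits of only the groups compared, that AFB3 rise (0.16), both shy2-2 DMSO falls (0.12 at 1 h, 0.11 at 2 h) and both slr-1 DMSO falls (0.12 and 0.057) missed the threshold. The slr-1 DMSO 6 h value passed without replicate 2 or 3 at 0 h (0.033, 0.023) or replicate 3 at 6 h (0.048), with unstranded counts (0.016), without a filter on low counts (0.042) and without the libraries rich in photosynthetic RNA (0.024).

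AFB4 mRNA, the scarcest of the 6, dropped at 1 h in all 4 arms, DEX included. In shy2-2 DMSO it stood at 23.76, 23.26 and 22.18 CPM at 0 h and 15.83, 17.4 and 16.97 at 1 h. In shy2-2 DEX it stood at 23.1, 23.03 and 24.04 CPM and then at 16.38, 18.52 and 17. In neither arm did the 2 groups overlap.

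In slr-1 DMSO AFB4 stood at 28.48, 22.15 and 22.93 CPM at 0 h and 17.67, 17.61 and 17.91 at 1 h, and in slr-1 DEX at 26.35, 24.02 and 23.28 and then 20.36, 19.44 and 17.73. The slr-1 groups did not overlap either. The log2 changes of AFB4 at 1 h were -0.46, -0.44, -0.45 and -0.36 in shy2-2 DMSO, shy2-2 DEX, slr-1 DMSO and slr-1 DEX, that is, AFB4 fell by 27.3%, 26.4%, 26.7% and 21.9% (edgeR adjusted p = 8.5e-06, 1.8e-05, 0.00027 and 0.0029). In slr-1 DEX both groups are from 1 flow cell. Without the libraries rich in photosynthetic RNA, which include slr-1 DEX 0 h replicates 1 and 2, that value was -0.30 with adjusted p = 0.13, and in a fit of only the groups compared its adjusted p was 0.057. By 2 h AFB4 was at 19.76 to 20.58 CPM in shy2-2 DMSO and 22.82 to 25.54 CPM in slr-1 DEX, above its 1 h libraries in both.

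The later AFB4 falls in DMSO were small. Log2 changes of -0.18 at 2 h and -0.17 at 6 h in shy2-2 (edgeR adjusted p = 0.049 and 0.039) and of -0.23 at 4 h and -0.24 at 6 h in slr-1 (0.028 and 0.022) passed. The shy2-2 2 h call was lost without any of 5 libraries (replicate 1 or 2 at 0 h, 0.11 and 0.095; replicate 1, 2 or 3 at 2 h, 0.075, 0.068 and 0.079), without a filter on low counts (0.058), with unstranded counts (0.074) and without the libraries rich in photosynthetic RNA (0.076), and the shy2-2 6 h call without replicate 1 or 3 at 6 h (0.051, 0.055). The slr-1 calls were lost without replicate 1 at 0 h, the highest AFB4 library at 28.48 CPM (4 h 0.17, 6 h 0.13), and that at 4 h also without replicate 2 at 4 h (0.056). In fits of only the groups compared all 4 of these AFB4 calls were lost (adjusted p of 0.2 and 0.22 in shy2-2, 0.13 and 0.15 in slr-1). AFB4 passed in 2 further comparisons under some settings. These were shy2-2 DMSO 4 h without replicate 3 at 0 h (0.024) or by DESeq2 (0.041), and slr-1 DMSO 2 h without replicate 2 or 3 at 0 h (0.017, 0.029), with other size factors (0.043) or with unstranded counts (0.04).

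AFB5, the closest relative of AFB4, moved least. Its group means lay between 71.89 and 92.37 CPM over all 20 groups. AFB5 passed in 1 of 16 comparisons with 0 h by edgeR. In slr-1 DMSO it stood at 89.06, 82.86 and 79.96 CPM at 0 h and 76.24, 70.14 and 69.3 at 2 h, without overlap, a log2 change of -0.21 (edgeR adjusted p = 0.032). That call was lost without replicate 1 at 0 h (adjusted p = 0.084), without replicate 2 or 3 at 2 h (0.083 each), in a fit of only the groups compared (0.13), and without the libraries rich in photosynthetic RNA (-0.29, 0.089), which include replicates 1 and 3 of the 2 h group. The other 15 changes of AFB5 against 0 h lay between -0.18 and 0.05. Of these, shy2-2 DEX 1 h passed by DESeq2 (adjusted p = 0.037) and with unstranded counts (0.048), and shy2-2 DMSO 6 h passed without replicate 2 at 6 h (0.032). In slr-1 DMSO AFB5 passed with unstranded counts at 1 h (0.049) and 6 h (0.035), at 1 h also without replicate 3 at 0 h (0.048) or 1 at 1 h (0.028), and at 6 h without replicate 3 at 0 h (0.035) or 1 at 6 h (0.018).

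**Figure D3:**
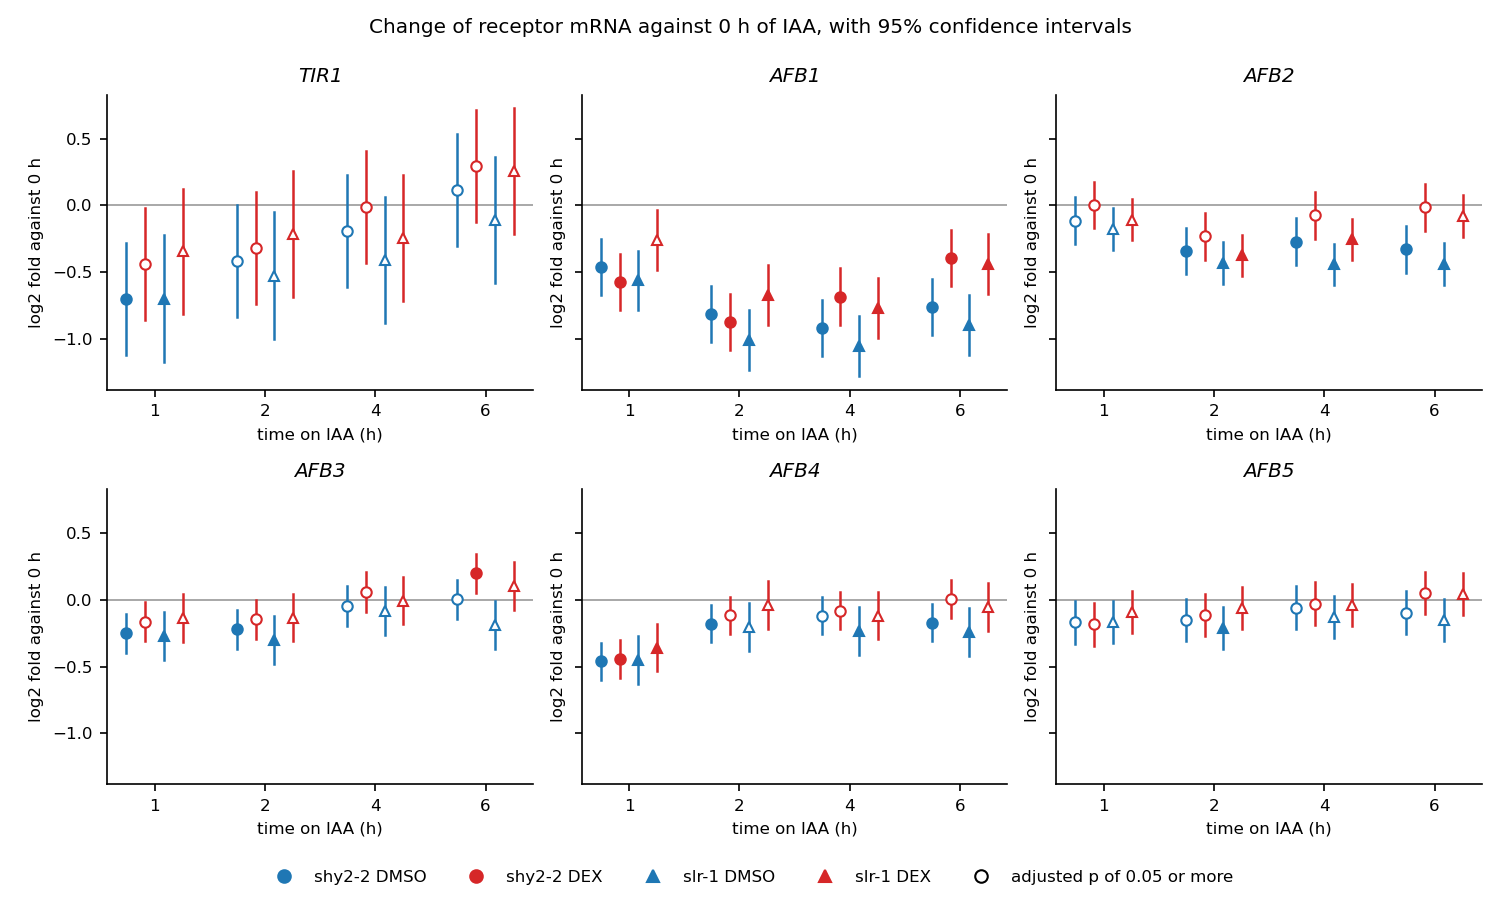
Log2 change of each receptor gene against 0 h of IAA in the same arm at 1, 2, 4 and 6 h, with 95% confidence intervals; blue is DMSO, red is DEX, circles are shy2-2, triangles slr-1, and open symbols have an adjusted p of 0.05 or more. AFB1 is below 0 at every time in all arms, AFB4 dips to between -0.46 and -0.36 at 1 h in all arms, and the TIR1 intervals are the widest.

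The second question is how the same course ran with the stabilised repressor active. With DEX, 5 of 24 values fell and 1 rose in shy2-2, and 6 of 24 fell in slr-1 (edgeR adjusted p under 0.05). In shy2-2 DEX 2, 1, 1 and 1 of 6 members fell at 1, 2, 4 and 6 h, against 11.5, 8.46, 11.1 and 17% of all genes. In slr-1 DEX 1, 2, 2 and 1 fell, against 11.1, 10.2, 16.3 and 18.5% of all genes. With 1 of 6 at a time, several of these counts are near the share of all genes.

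AFB1 was lower than at 0 h at most times in DEX too. In shy2-2 DEX it stood at 157.7, 154.8 and 141.6 CPM at 0 h and 104.7, 101.1 and 100.4 at 1 h. The 2 h libraries were at 86.03, 80.57 and 80.53 CPM, the 4 h libraries at 79, 101.1 and 102.8 and the 6 h libraries at 126.4, 108 and 111.1 CPM. All libraries on IAA were below 0 h, and those at 6 h were above those at 2 h. The AFB1 log2 changes were -0.58, -0.87, -0.68 and -0.39 (edgeR adjusted p = 0.00011, 5.4e-07, 1.5e-05 and 0.0038), the last 3 within 1 flow cell. In slr-1 DEX, AFB1 stood at 143.4, 128.9 and 145 CPM at 0 h and 109, 120.8 and 119.5 at 1 h. Its 2 h libraries were at 80.95, 88.89 and 91.66 CPM, its 4 h libraries at 77.2, 86.41 and 83.5 and its 6 h libraries at 108, 95.9 and 104.3 CPM. Its changes there were -0.67, -0.77 and -0.44 at 2, 4 and 6 h (adjusted p = 4.2e-05, 5.5e-06 and 0.0024), and at 1 h, within 1 flow cell, -0.26 with an adjusted p of 0.085 (0.047 by DESeq2).

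AFB2 fell in slr-1 DEX at 2 and 4 h and was back by 6 h. It stood at 116.8, 98.59 and 103.5 CPM at 0 h and 79.33, 82.71 and 83.25 at 2 h. The 4 h libraries were at 92.53, 89.88 and 86.68 CPM, all below 0 h, and the 6 h libraries at 108.6, 96.13 and 97.85, overlapping 0 h. The AFB2 changes were -0.38 (edgeR adjusted p = 0.00052), -0.26 (0.011) and -0.08 (0.43). In shy2-2 DEX AFB2 changed by -0.23 at 2 h with an adjusted p of 0.052, and it passed without replicate 1 (0.031) or 2 (0.036) at 0 h, by DESeq2 (0.019), with other size factors (0.033), with unstranded counts (0.02) and without the libraries rich in photosynthetic RNA (0.034). Beside these values, the photosynthesis genes were lower in 28 of 36 values of slr-1 DEX against 0 h, their summed level being 392.3 to 2985 CPM at 0 h and 92.85 to 333.2 at 6 h. Without the libraries rich in photosynthetic RNA the AFB2 change at 4 h in slr-1 DEX was -0.23 with an adjusted p of 0.11, and in a fit of only the groups compared its adjusted p was 0.057.

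AFB3 in shy2-2 DEX was the only member value above 0 h that passed. It stood at 57.83, 59.95 and 70.87 CPM at 0 h and 73.57, 70.16 and 72.48 at 6 h, and replicate 3 at 0 h overlapped the 6 h group. The log2 change of AFB3 was 0.20 (edgeR adjusted p = 0.031), where 18.7% of all genes rose. It was lost without replicate 1 or 2 at 0 h (log2 0.12 and 0.14, adjusted p = 0.24 and 0.2), without replicate 1 or 3 at 6 h (0.089, 0.078), with other size factors (0.059), with unstranded counts (0.18), in a fit of only the groups compared (0.23) and without a filter on low counts (0.055). Without the libraries rich in photosynthetic RNA it was 0.14 with an adjusted p of 0.23. Without replicate 1 at 0 h AFB3 passed as lower at 1 h (0.028, and 0.038 by DESeq2 with all libraries) and 2 h (0.045).

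TIR1 did not pass against 0 h at any time in either DEX arm. In shy2-2 DEX TIR1 was at 145.7, 183.6 and 213 CPM at 0 h and 146.1, 155.6 and 98.93 at 1 h, overlapping, with a log2 change of -0.44 (edgeR adjusted p = 0.11). It passed when replicate 1 at 0 h was left out (-0.59, 0.047). In slr-1 DEX, where both groups share a flow cell, TIR1 was at 218, 134.7 and 134.9 CPM and then at 115.1, 168.8 and 99.6, again overlapping, with a change of -0.34 (adjusted p = 0.33).

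A set of comparisons inside 1 flow cell, 6 h against 2 h of IAA in each arm, was added after the values had been seen. In shy2-2 DEX 3 of 6 members rose (edgeR adjusted p under 0.05), where 5.99% of all genes rose. AFB1 went from 82.38 ± 3.16 to 115.2 ± 9.84 CPM (SD, n = 3; log2 0.48, adjusted p = 0.0028) and AFB3 from 56.62 ± 2.1 to 72.07 ± 1.74 (0.34, 0.0023). TIR1 went from 171.1, 130.3 and 130.6 CPM to 229.2, 191.5 and 244.1, without overlap (0.62, 0.042). The TIR1 call was lost without replicate 2 or 3 at 2 h (0.15, 0.14) or replicate 1 or 3 at 6 h (0.12, 0.15), and without a filter on low counts, where its adjusted p was 0.05 after rounding.

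In shy2-2 DMSO AFB3 was the 1 member that edgeR called for 6 h against 2 h, as given above. TIR1 there reached 0.53 with an edgeR adjusted p of 0.058, and it passed by DESeq2 (0.52, 0.045) and without replicate 2 at 2 h (0.66, 0.039), which is also the 1 library rich in photosynthetic RNA in that arm. In slr-1 DEX 1 of 6 members rose, where 5.47% of all genes rose. That was AFB2, from 81.77 ± 2.12 to 100.9 ± 6.78 CPM (0.30, edgeR adjusted p = 0.0092), lost without replicate 1 at 6 h (0.24, 0.072). AFB3 there was at 0.24 (adjusted p = 0.063) and passed by DESeq2 (0.035) and without replicate 3 at 2 h (0.048). In slr-1 DMSO none passed by edgeR or DESeq2, while 33.4% of all genes changed in either direction. No member had an unadjusted p under 0.05 there, while 9453 of 21864 genes did.

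The third question is whether DEX and DMSO differed at a given time. None of the 6 members passed at 0, 1 or 2 h in either line by edgeR or by DESeq2. Of all genes 0, 0.219 and 0.594% passed in shy2-2 and 0.0229, 0.585 and 1.57% in slr-1. Only AFB4 in slr-1 at 2 h had an unadjusted p under 0.05, in a comparison where 2100 of 21864 genes did. At 1 h in shy2-2 both groups share a flow cell, and there the largest of the 6 log2 differences was that of TIR1, at 0.22 (95% interval -0.20 to 0.64). Differences appeared at 4 and 6 h and all that passed were higher in DEX. All 4 and 6 h comparisons of DEX with DMSO are between flow cells.

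In shy2-2 at 6 h, AFB1 was 37.2% higher in DEX: 126.4, 108 and 111.1 CPM against 81.73, 86.45 and 78.35 (log2 0.46, 95% interval 0.25 to 0.67, edgeR adjusted p = 0.0019). AFB2 was at 99.21, 95.74 and 105.6 CPM in DEX and 77.06, 80.66 and 82.04 in DMSO (0.29, 0.013). AFB3 was at 73.57, 70.16 and 72.48 against 64.12, 60.47 and 58.87 (0.21, 0.037) and AFB4 at 24.19, 23.72 and 22.53 against 18.75, 21.25 and 19.96 (0.20, 0.033). In all 4 the lowest DEX library was above the highest DMSO library. The same held for AFB5, which did not pass, and the share of all genes without overlap is not given here. The 4 of 6 members that passed stand against 8.53% of all genes higher in DEX at that time.

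AFB5 at 6 h in shy2-2 was at 89.04, 95.17 and 92.9 CPM in DEX and 66.56, 88.17 and 81.51 in DMSO (log2 0.20, 0.04 to 0.36, edgeR adjusted p = 0.066; 0.034 by DESeq2, and 0.011 without DMSO replicate 2), and TIR1 differed by 0.14 (-0.28 to 0.56). The AFB2 difference was lost without DEX replicate 3 (0.25, 0.071). That of AFB3 was lost without DEX replicate 1 or 3 (0.11, 0.098) or DMSO replicate 2 or 3 (0.078, 0.094), and that of AFB4 without DEX replicate 1 or 2 (0.12, 0.068) or DMSO replicate 1 or 3 (0.084, 0.056). With unstranded counts AFB3 (0.083) and AFB4 (0.1) missed the threshold, and in a fit of only the groups compared so did AFB2 (0.079), AFB3 (0.17) and AFB4 (0.22). At 4 h in shy2-2 AFB1 alone passed (0.32, adjusted p = 0.039), where 2.47% of all genes were higher. Its DEX libraries at 79, 101.1 and 102.8 CPM were all above the DMSO ones at 68.94, 75.56 and 78.17, the lowest of the first just above the highest of the others. That AFB1 call was lost without DEX replicate 2 or 3 (0.12, 0.19), without DMSO replicate 1 or 2 (0.17, 0.086), without the libraries rich in photosynthetic RNA (0.2), of which DEX replicate 3 is 1, and in a fit of only the groups compared (0.15).

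In slr-1 at 6 h, AFB2 was 30.3% higher in DEX, at 108.6, 96.13 and 97.85 CPM against 80.6, 75.39 and 78.21 (log2 0.38, 95% interval 0.23 to 0.54, edgeR adjusted p = 0.00034). AFB3 was at 70.84, 66.25 and 67.03 CPM against 56.61, 54.57 and 57.26 (0.29, 0.012; 0.071 in a fit of only the groups compared). Neither pair of groups overlapped. These 2 of 6 members stand against 12.3% of all genes higher in DEX. AFB1 differed by 0.27 (0.04 to 0.49, adjusted p = 0.063), although its libraries did not overlap, AFB4 by 0.20 (0.082), AFB5 by 0.19 (0.063) and TIR1 by 0.31 (-0.16 to 0.78). AFB1 passed without DEX replicate 2 (0.042) or DMSO replicate 3 (0.034), AFB4 without DEX replicate 1 (0.024) or with unstranded counts (0.034), and AFB5 without DEX replicate 2 (0.014) or DMSO replicate 1 (0.018) or with unstranded counts (0.046). At 4 h in slr-1 none passed by edgeR, where 17.8% of all genes did in either direction. There 1 member had an unadjusted p under 0.05, as did 6229 of 21864 genes. AFB2 had an adjusted p of 0.052 (0.21) by edgeR and 0.034 by DESeq2.

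Of the markers, no photosynthesis gene passed for DEX against DMSO at any time in either line, while 1 of the 6 root markers did, PHO1. It was higher in DEX at 2, 4 and 6 h in shy2-2 (log2 1.04, 1.38 and 2.26) and at 1, 2, 4 and 6 h in slr-1 (0.66, 1.28, 2.44 and 3.55; edgeR adjusted p from 0.016 to 2.5e-14). At 6 h PHO1 stood at 234.5 to 310.8 CPM in shy2-2 DEX and 45.08 to 64.02 in DMSO, and at 302.9 to 357.5 CPM in slr-1 DEX and 24.16 to 31.72 in DMSO. The summed level of the 6 root markers at 6 h overlapped between DEX and DMSO in both lines, at 6074 to 7907 and 6250 to 6878 CPM in shy2-2 and 5931 to 8713 and 4225 to 6491 CPM in slr-1. That sum is mostly PYK10, so its overlap says little about the other root markers. The part of what PHO1 marks in the receptor differences was not tested.

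**Figure D4:**
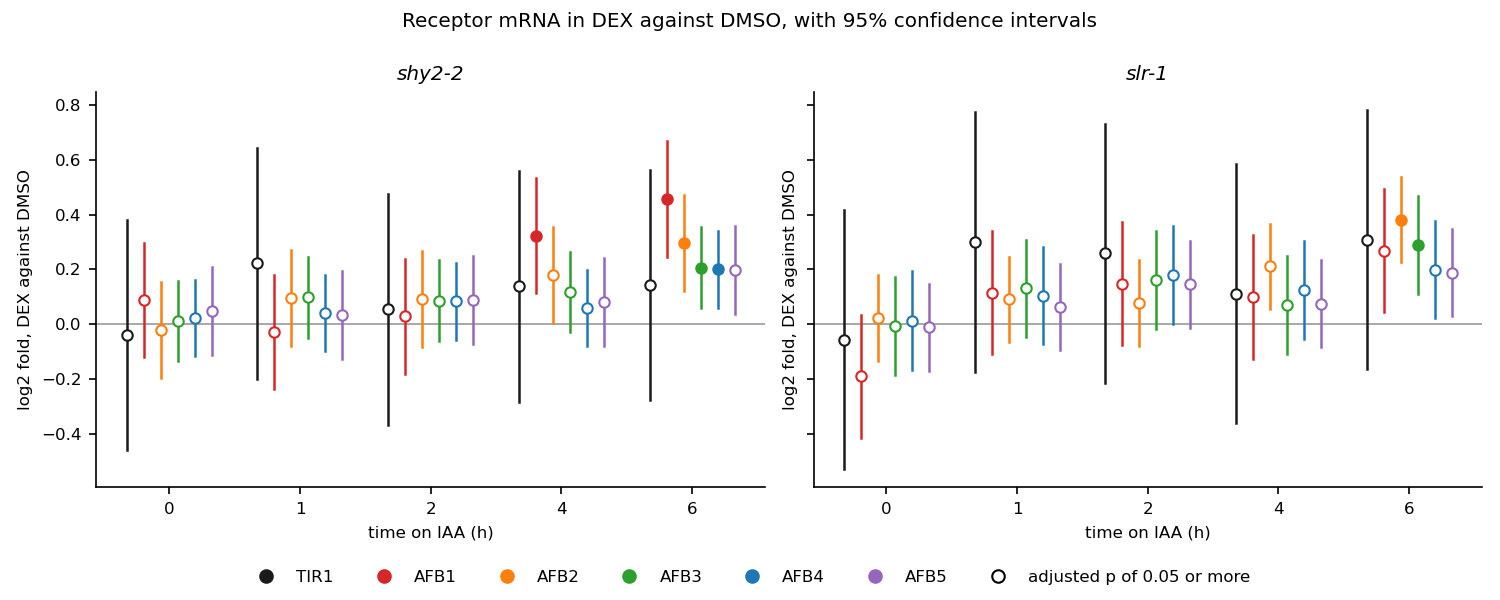
Log2 difference of DEX from DMSO for the 6 receptor genes at 0, 1, 2, 4 and 6 h on IAA in each line, with 95% confidence intervals; colours are genes and open symbols have an adjusted p of 0.05 or more. No symbol is filled before 4 h, and at 6 h AFB1, AFB2, AFB3 and AFB4 are filled in shy2-2 and AFB2 and AFB3 in slr-1.

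The auxin response itself was compared between DEX and DMSO as the mean of 2, 4 and 6 h less 0 h in DEX, minus the same in DMSO. In shy2-2 each response is within 1 flow cell. All 6 members had a positive value in both lines and none passed. Over all genes 4.62% changed by this test in the shy2-2 line and 11.2% in the slr-1 line. The shy2-2 values ran from 0.07 for AFB5 to 0.21 for AFB2 (95% interval 0.01 to 0.41, edgeR adjusted p = 0.25). The slr-1 values ran from 0.15 for AFB5 to 0.36 for AFB1 (0.10 to 0.62, adjusted p = 0.063). At an unadjusted p under 0.05 stood 1 member in shy2-2 (AFB2) and 2 in slr-1 (AFB1 and AFB2). Of all genes 4061 of 21902 in shy2-2 and 5309 of 21864 in slr-1 did so, and the members' counts are near that background. DESeq2 called none in shy2-2 and 1 in slr-1, AFB1 (0.35, adjusted p = 0.049). In slr-1 AFB1 also passed without DMSO 4 h replicate 3 (0.40, 0.03) and AFB2 without DEX 0 h replicate 1 (0.28, 0.044).

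The change from 2 h to 6 h was compared between DEX and DMSO in the same way, within flow cells in both lines and also chosen after the values were seen. None of the 6 members passed by edgeR, where 3.48% of all genes did in shy2-2 and 10% in slr-1. AFB1 in shy2-2 was at 0.43 (95% interval 0.13 to 0.72, edgeR adjusted p = 0.094) and AFB2 in slr-1 at 0.30 (0.08 to 0.52, adjusted p = 0.071). These were the only members with an unadjusted p under 0.05, 1 in each line. Of all genes 3953 of 21902 in shy2-2 and 4794 of 21864 in slr-1 had one, and the members' counts are near that background. DESeq2 called both members, at adjusted p of 0.05 after rounding and 0.043. AFB2 in slr-1 also passed without DMSO 2 h replicate 3 (0.38, 0.03).

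No difference between the lines passed for any member. The 18 values (response in DMSO, response in DEX, and change by DEX, shy2-2 minus slr-1) lay between -0.15 and 0.15 log2, none at an unadjusted p under 0.05 and none called by DESeq2. Of all genes 0.144, 0.0269 and 0.00898% passed, and 1914, 488 and 577 of 22268 had an unadjusted p under 0.05. The interval for AFB1 in DMSO was -0.11 to 0.36 and that for TIR1 -0.36 to 0.66, so differences of that size between the lines were not detectable for TIR1.

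Split by the miR393 windows shown above, falls were seen among members with a site and, mostly in AFB4, among those without. In shy2-2 DMSO 10 of 16 values against 0 h fell for TIR1, AFB1, AFB2 and AFB3 and 3 of 8 for AFB4 and AFB5, all 3 of them AFB4, where over the same 4 times 15.6% of the values of all genes fell. Their medians were -0.30 and -0.16. In slr-1 DMSO it was 10 of 16 and 4 of 8, 3 of the 4 being AFB4, with medians of -0.43 and -0.21, where 18.7% of all values fell. AFB2 and AFB3 have the same window. At 6 h in DMSO AFB2 was lower in both lines (log2 -0.33 and -0.44) and AFB3 was at 0.00 and -0.19, a difference between the genes that was not tested. The loci MIR393A and MIR393B had 5 and 22 reads over all 60 libraries, and mature miRNA was not measured.

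The gene bHLH77, a transcription factor gene also listed among miR393 targets, has its window at chr3:8530587-8530608 (-), shown for comparison with the receptors. It has 2 mismatches and 2 G:U pairs, and its seed-facing bases all pair.
bHLH77: ggGtcaGAgcgatccctttggC
Its mRNA fell at every time in DMSO, by log2 -0.42, -0.55, -0.65 and -0.67 in shy2-2 and by -0.42, -0.57, -0.82 and -0.71 in slr-1 (edgeR adjusted p from 6.7e-05 to 1.3e-09). For bHLH77 the change of the response by DEX passed in both lines, at 0.35 in shy2-2 (adjusted p = 0.0049) and 0.38 in slr-1 (0.0026). Its mean in shy2-2 went from 77.85 to 47.8 CPM by 6 h in DMSO and from 71.42 to 65.29 CPM in DEX. With DEX bHLH77 also passed as lower than at 0 h at 1, 2 and 4 h in shy2-2 and at all 4 times in slr-1.

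The other listed genes of the miR393 pathway are the 2 MIR393 loci, which did not pass the filter on low counts, and 5 genes of miRNA processing. In 20 values of these 5 against 0 h, 6 rose and none fell in shy2-2 DMSO, 6 rose and 1 fell in slr-1 DMSO, 1 rose and none fell in shy2-2 DEX, and none passed in slr-1 DEX. Over all genes 20.6, 23.2, 15.5 and 15.5% of values rose in shy2-2 DMSO, slr-1 DMSO, shy2-2 DEX and slr-1 DEX, and 15.6, 18.7, 12 and 14% fell. The 1 fall was that of AGO1 at 6 h (log2 -0.36), named because it stands alone. HEN1, which methylates small RNAs, rose at 4 and 6 h in DMSO (log2 0.74 and 0.71 in shy2-2, 0.82 and 0.88 in slr-1, edgeR adjusted p from 0.0011 to 5.8e-05). HEN1 was lower in DEX than in DMSO at 6 h, by -0.66 in shy2-2 (adjusted p = 0.006) and -0.93 in slr-1 (6.6e-05). SE and HYL1, partners of the dicer DCL1, rose in DMSO at 4 h by 0.25 and 0.42 in shy2-2 and 0.33 and 0.57 in slr-1.

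The partners of the receptors in the SCF ligase and its RUB-modification cycle rose about as often as genes in general and fell in few values. Of 64 values each (16 genes at 4 times) 16 rose and 3 fell in shy2-2 DMSO, 17 and 3 in slr-1 DMSO, 12 and 1 in shy2-2 DEX, and 14 and 2 in slr-1 DEX. Against the shares of all values just given, the falls are fewer and the rises near the background. The medians of these values were 0.12, 0.10, 0.15 and 0.16. SGT1A, a co-chaperone, rose at 1 h in all 4 arms, from 22.53 to 61.17 CPM in shy2-2 DMSO (log2 1.45, edgeR adjusted p = 8.6e-05) and by 1.58, 1.38 and 1.46 in shy2-2 DEX, slr-1 DMSO and slr-1 DEX. AXR1, a subunit of the enzyme that activates RUB, rose at 4 and 6 h in DMSO by 0.27 and 0.33 in shy2-2 and 0.26 and 0.25 in slr-1. AXL, its close copy, rose at 4 h in DMSO by 0.58 in shy2-2 and 0.47 in slr-1. CSN5A, the subunit of the COP9 signalosome that removes RUB, was lower in DEX at 6 h by -0.40 in both lines (adjusted p = 0.0052 and 0.0031). None of the 16 passed for the change of the response by DEX in either line.

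Of 9 other listed genes tied to auxin perception, 8 were tested. In 32 values against 0 h 4 rose and 16 fell in shy2-2 DMSO, 3 and 17 in slr-1 DMSO, 2 and 8 in shy2-2 DEX, and 4 and 10 in slr-1 DEX, with medians of -0.24, -0.38, -0.13 and -0.12. Of the values of all genes 15.6, 18.7, 12 and 14% fell in those arms, and the falls of the list rest on a few genes that fell at several times. TMK1, a receptor-like kinase of cell-surface auxin signalling, fell at every time in all 4 arms, at 1 h by -0.76 (shy2-2 DMSO), -0.88 (shy2-2 DEX), -0.77 (slr-1 DMSO) and -0.72 (slr-1 DEX). Its relative TMK4 fell at all 4 times in DMSO in both lines, at 1 h by -0.53 in shy2-2 and -0.49 in slr-1. COI1, the jasmonate receptor and closest F-box relative of the 6, fell at all 4 times in shy2-2 DMSO, at 1 h by -0.58. Of the F-box genes SKP2A and SKP2B, SKP2A fell at 1 h in slr-1 DMSO by -1.20. SKP2B rose at 6 h by 1.26 in shy2-2 DMSO, from 24.76 to 57.69 CPM (edgeR adjusted p = 1.5e-06). These values are from different times and lines. CNGC14, a calcium channel needed for fast auxin signals in roots, was at 57.05 CPM in DEX and 41.61 CPM in DMSO at 6 h in shy2-2 (0.42, adjusted p = 0.0024).

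For DEX against DMSO over the 5 times, the ligase and RUB list had none higher and 3 lower of 80 values in shy2-2, and 1 higher and 2 lower in slr-1. The miRNA processing genes had none higher and 5 lower of 25 values in shy2-2, and 1 and 6 in slr-1. The list of other perception genes had 2 higher and 2 lower of 40 values in shy2-2, and 1 and 2 in slr-1. Of the values of all genes 2.27% were higher and 4.55% lower in shy2-2, and 3.76% and 6.09% in slr-1, so the counts of the ligase and perception lists are near the background. None of these genes passed for a difference between the lines by edgeR.

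The 6 members share some sequence, which bears on how their reads were counted. In coding sequence AFB2 and AFB3 were 82.1% identical, AFB4 and AFB5 80.3%, and TIR1 and AFB1 68.6%, with other pairs at 52.8% to 62.2%. The longest run of identical bases was 38, between AFB4 and AFB5, and 29 between AFB2 and AFB3, and the share of reads that could map to both members of a pair was not measured. On RefSeq TAIR10.1 TIR1 lies at chr3:23273065-23276630 (-), AFB1 at chr4:1404887-1407402 (-), AFB2 at chr3:9867652-9870782 (+), AFB3 at chr1:4368760-4371298 (-), AFB4 at chr4:12613076-12616238 (-) and AFB5 at chr5:20333897-20336671 (-), each with 3 coding exons.

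AFB1, AFB3 and AFB4 overlap genes on the opposite strand, the first 2 along their miR393 windows. The noncoding RNA AT4G04455 covers 423 bases of AFB1 and AT1G04977 covers 638 bases of AFB3, and each spans the miR393 window of its receptor. AT4G24380 covers 644 bases of AFB4. Counts without regard to strand gave 69.2% of the stranded count for AFB1, 57.5% for AFB3 and 93.5% for AFB4, and 100.5% to 100.8% for the other 3. The values given here use the strand of the gene, which held 93.61% to 96.42% of stranded counts in each library. Every AFB1 fall against 0 h that passed did so with the unstranded counts as well.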

How the data were processed

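RNA-seq libraries were made with standard Illumina protocols, per the labels. The authors deposited gene counts (whole reads per gene: unstranded, and for each strand) for each of 60 libraries; STAR 2.5.2b, the TAIR10 build and DESeq2 are named in the submitters' processing notes, and the annotation release is not given in the sources used here. The counts of the strand that held most reads were used. Rows naming no gene, 5.58% to 11.89% of each library, stayed out of library sizes. Each line was fitted separately (30 libraries, 10 groups) with edgeR 4.0.16 in R 4.3.3: TMM factors, filterByExpr, robust quasi-likelihood tests, and Benjamini-Hochberg adjustment over 21902 genes in shy2-2 and 21864 in slr-1. The lines were compared in a fit of all 60 libraries (22268 genes). Adjusted p under 0.05 was called. CPM are TMM-scaled, except for the opposite-strand reads of AFB4. CPM per kb divides by exon length on RefSeq TAIR10.1, matched by locus. Group values are means ± SD. Alternatives were DESeq2 1.42.0, RLE size factors, no low-count filter, unstranded counts, fits of the compared groups, a replicate block, and libraries left out. miR393 windows were the best ungapped pairing in the spliced transcript of each coding gene, untranslated parts included. Simulated counts of 21688 genes (shy2-2 DMSO, 1 h against 0 h) held 100 genes changed by log2 0.5 and 100 changed by log2 1. Of these 20% and 90% were recovered, and 35% and 90% in slr-1. In the data 13.2% of genes fell in that shy2-2 comparison, so these shares do not measure the recovery of the members. No 2 libraries of a group held the same counts within sampling noise. Named are all 6 members, up to 4 genes of each partner list per set of comparisons, by lowest adjusted p, and the 3 genes most like each member over the group means of log2(CPM + 1). The members and lists were chosen with earlier results of these data known, and the comparisons of 6 h with 2 h were added after the values were seen.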

Additional observations from a re-analysis of the deposited data

Results flagged for a closer look

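Reads on the strand opposite AFB4 made up 30.73% of its stranded reads over all libraries, between 9.47% and 55.43% per library, and they enter none of the comparisons above. The share was singled out because it exceeds a limit of 5%. The other members had 0.76% (TIR1), 1.45% (AFB1), 0.5% (AFB2), 3.33% (AFB3) and 0.55% (AFB5). AFB4 opposite-strand reads were highest at 1 h, when AFB4 itself was lowest. In shy2-2 DMSO they went from 4.38 ± 0.621 CPM at 0 h to 15.13 ± 3.93 CPM at 1 h (SD, n = 3), in shy2-2 DEX from 3.79 ± 1.12 to 15.31 ± 1.65, in slr-1 DMSO from 5.45 ± 0.957 to 17.97 ± 5.04 and in slr-1 DEX from 5.69 ± 2.64 to 15.02 ± 2.13. At 6 h they were at 5.19 to 6.95 CPM. AT4G24380 lies on that strand and overlaps AFB4 over 644 bases. Its own mean went from 7.17 CPM at 0 h to 23.96 at 1 h in shy2-2 DMSO, and from 6.01 to 24.11 in shy2-2 DEX. In slr-1 it went from 8.04 to 27.27 CPM in DMSO and from 8.54 to 24.68 in DEX. By 6 h AT4G24380 was at 8.38 to 10.59 CPM. The part of AT4G24380 in the opposite-strand reads was not tested. With unstranded counts the 1 h fall of AFB4 passed in all 4 arms (log2 -0.54 to -0.42).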

How the results depend on the processing

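The counts of called members kept within 1.5 times of their value under most alternatives, and no called member value changed sign under any of them. In fits of only the groups compared, 6 of 24 values passed in shy2-2 DMSO (13 above), 4 in slr-1 DEX (6), 1 of 30 for DEX against DMSO in shy2-2 (5) and 1 in slr-1 (2). Without the libraries rich in photosynthetic RNA, 4 values passed in slr-1 DEX (6) and 3 for DEX against DMSO in slr-1 (2). DESeq2 gave 9 in shy2-2 DEX (6), 3 for DEX against DMSO in slr-1 (2) and 1 for the change by DEX in slr-1 (0). Unstranded counts gave 3 for DEX against DMSO in shy2-2 (5) and 5 in slr-1 (2). Leaving out 1 library at a time gave 11 to 14 values in shy2-2 DMSO, 9 to 18 in slr-1 DMSO, 5 to 9 in shy2-2 DEX, 6 to 6 in slr-1 DEX, 3 to 5 and 2 to 4 for DEX against DMSO in shy2-2 and slr-1, 0 to 0 and 0 to 1 for the change by DEX, and 0 to 0 between the lines. The causes of these shifts were not tested. The fewest reads behind a value were 330, for AFB4.

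Replicate numbers do not mark a shared source in the labels. The deviations of same-numbered libraries had a mean correlation of 0.04 in each line, and 15 of 30 libraries in shy2-2 and 12 of 30 in slr-1 correlated best with their own number. With the replicate block, called members were 13 in shy2-2 DMSO, 19 in slr-1 DMSO, 8 in shy2-2 DEX, 6 in slr-1 DEX, 6 and 4 for DEX against DMSO in shy2-2 and slr-1, 0 and 1 for the change by DEX, and 0 between the lines. No call was lost with it.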

Other observations

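Over the 20 group means some members followed like courses, given here as descriptions over groups that share libraries, depth and flow cells. Pearson's r was 0.88 for AFB3 and AFB5, 0.86 for AFB1 and AFB2, 0.85 for TIR1 and AFB3 and 0.81 for TIR1 and AFB5, against 0.3 for TIR1 and AFB1, 0.3 for TIR1 and AFB2, 0.31 for AFB1 and AFB4 and 0.2 for AFB2 and AFB4. The coding sequences most alike, AFB2 with AFB3 and AFB4 with AFB5, had r of 0.49 and 0.64. Among 15790 genes with a mean of at least 5 CPM, those closest to TIR1 by the same measure were ATAN11 (r = 0.958), AT4G00752 (0.952) and AT5G23380 (0.948). Closest to AFB1 were CAK1AT (0.97), AT2G19660 (0.968) and TBL39 (0.964), and to AFB2 AT5G03140 (0.95), MYC4 (0.946) and NPC3 (0.941). Closest to AFB3 were RTV1 (0.958), ACS12 (0.929) and ATAN11 (0.926), to AFB4 AT1G22060 (0.946), AT2G37840 (0.937) and PAT2 (0.937), and to AFB5 AT1G73380 (0.945), AT1G24160 (0.941) and AT2G46900 (0.937).

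In the 300 bases from 250 before to 50 after the RefSeq start, TGTCTC, the letters of a canonical auxin response element, were present on either strand in AFB5 (1 match) and in none of the other 5 members, and in 14.2% of 27443 promoters. TGTCGG was in none of the 6 and in 5.1% of all promoters. TGTC, which TGTCTC and TGTCGG both contain, occurred 1 to 3 times in each member and in 81.5% of all promoters.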
